A study of Mus musculus with 9 samples.

Results

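Paneth cells sit at the base of the crypts of the small intestine and release granules of antimicrobial proteins into the lumen. In the mouse the main ones are the alpha-defensins, also called cryptdins, small cysteine-rich peptides that damage bacterial membranes and are made as inactive precursors. The genes described here are the rows of the deposited expression table named Defa followed by a number, together with 5 further Paneth cell products, Lyz1, Ang4, Mmp7, Itln1 and Mptx2. The rule gave 33 of 55468 genes, of which 28 are alpha-defensins. The 17 genes with pseudogene names (Defa-ps) were left out, and 0 genes had a Defa-rs name.

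RNA from the mouse intestinal tract was sequenced in a model of inflammatory bowel disease, with 1 library for each of 9 conditions. In 8 of them the mice drank dextran sulfate sodium (DSS), which injures the gut epithelium, from day 18. Tissue was collected at day 28 from mice on normal diet (library R), on a diet without methionine (1K), on a diet without tryptophan and niacin (2K), and on a diet without all 3 nutrients (3K). At day 33 it was collected from mice always on normal diet (RR) and from mice returned at day 28 from a deficient diet to normal food (1KR after 1K, 2KR after 2K, 3KR after 3K). The library without DSS (C) came from mice on normal feed at day 34. The sources used here do not give the strain, the age at the start, the stretch of gut taken or the number of mice behind a library. With 1 library per condition, a difference between a pair of libraries has no spread between replicates to be set against, so each one below describes those libraries and carries no test.

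Lyz1, the Paneth cell lysozyme, splits bacterial cell walls, and Mmp7 (matrilysin) cuts the alpha-defensin precursors into active peptides. Ang4 is a bactericidal member of the ribonuclease family, Itln1 (intelectin) is a lectin that binds microbial sugars, and Mptx2 is a mucosal pentraxin. Wnt signalling through beta-catenin and Tcf factors is known to drive Paneth cell genes. In tissue RNA, fewer Paneth cells and less RNA per Paneth cell cannot be told apart.

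The 28 alpha-defensin genes lie between positions 21025545 and 21735471 of chromosome 8 (GRCm38), 23 on the plus strand and 5 on the minus strand. The other members lie elsewhere, Itln1 and Mptx2 on chromosome 1 (171518122 to 171535294 and 173274382 to 173277777), Mmp7 on chromosome 9 (7692090 to 7699585), Lyz1 on chromosome 10 (117287797 to 117292868) and Ang4 on chromosome 14 (51763878 to 51773590). All positions are whole protein-coding genes from GENCODE M21. Across all 378 pairs of alpha-defensins the coding sequences were between 43.5% and 100% identical, with a median of 81.5%. The minus-strand genes are Defa29, Defa38, Defa39, Defa42 and Defa43, and their coding sequence is 348 bases long with 11 cysteine codons. RefSeq lists CRS1C names (cryptdin-related sequence 1C) among the synonyms of Defa29, Defa38 and Defa39. These 3 genes are set apart below because their values differed from the rest in some comparisons, so the grouping was chosen after the values were seen.

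The last 41 codons of the coding sequence, which include the cysteine-rich end, are shown for 4 genes of the cryptdin type and for the 3 CRS1C genes, because the results turn on the difference between these sets. They are written 5′ to 3′ from GENCODE M21, with cysteine codons (TGT or TGC in frame) in capitals.
Defa24: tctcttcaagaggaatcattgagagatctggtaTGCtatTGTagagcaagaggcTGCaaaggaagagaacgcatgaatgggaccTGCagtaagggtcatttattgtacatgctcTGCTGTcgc
Defa30: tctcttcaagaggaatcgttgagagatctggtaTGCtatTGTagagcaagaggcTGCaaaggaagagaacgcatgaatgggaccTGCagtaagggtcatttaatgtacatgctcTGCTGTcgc
Defa35: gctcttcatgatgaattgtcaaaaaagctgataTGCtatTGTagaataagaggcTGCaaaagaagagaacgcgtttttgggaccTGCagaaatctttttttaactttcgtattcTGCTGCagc
Defa40: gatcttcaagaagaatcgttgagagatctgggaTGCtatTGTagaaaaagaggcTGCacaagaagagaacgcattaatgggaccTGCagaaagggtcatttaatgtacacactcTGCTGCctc
Defa29: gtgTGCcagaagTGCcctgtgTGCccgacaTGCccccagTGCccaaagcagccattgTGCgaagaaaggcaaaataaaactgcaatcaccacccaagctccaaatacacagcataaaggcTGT
Defa38: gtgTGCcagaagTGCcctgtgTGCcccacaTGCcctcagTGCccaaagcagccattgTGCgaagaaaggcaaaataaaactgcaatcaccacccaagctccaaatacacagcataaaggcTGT
Defa39: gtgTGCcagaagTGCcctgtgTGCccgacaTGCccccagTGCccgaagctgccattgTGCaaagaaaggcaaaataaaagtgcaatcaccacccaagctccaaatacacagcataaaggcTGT
The 4 genes of the cryptdin type shown have 6 cysteine codons in this stretch and the 3 CRS1C genes have 7, in other places. On the plus strand, Defa25, Defa28 and Defa41, not shown, also have 7. Defa24 and Defa30 were 98.6% identical over the coding sequence. The 3 CRS1C genes were between 96.6% and 97.4% identical to each other and between 43.5% and 65.3% identical to the other 7 of the 10 most abundant alpha-defensins.

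Likeness between copies limits what short reads can assign. Of the possible 100-base reads from each gene's transcript, 100% were found in no other gene's transcript for Defa24 and Defa39, 99.7% for Defa30, 99.0% for Defa40, 89.0% for Defa29, 84.9% for Defa27, 82.1% for Defa38 and 76.6% for Defa35. The share was 25.0% for Defa34, 11.9% for Defa5, 9.40% for Defa17 and 0% for Defa31, so the split of reads between these genes and their copies is uncertain. The read length is unknown, and for 50-base reads the shares were lower, at 71.9% for Defa24, 66.5% for Defa39, 62.8% for Defa40, 56.6% for Defa29, 47.6% for Defa30, 44.4% for Defa38, 43.8% for Defa27 and 40.1% for Defa35. Defa17 and Defa3 have the same coding sequence, as do Defa23 and Defa31. Among the other members the share of 100-base reads was 96.7% for Mptx2, 97.9% for Lyz1 and 100% for Itln1, Mmp7 and Ang4. The sources used here do not give how the authors treated reads that fit several places.

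Short stretches upstream of 4 genes are shown because Defa38 moved apart from the other 3 in the diets. RefSeq (GRCm38.p6) gave a promoter for 16 of the 28 alpha-defensins, and among the 10 most abundant ones Defa24, Defa27, Defa39, Defa29, Defa40, Defa17 and Defa34 had no entry. Capitals mark TATAAA, the TATA box letters, and the reverse complement of CTTTGA, and each stretch is written 5′ to 3′ on the strand of its gene.
Defa35, chr8:21064952-21065015, plus strand: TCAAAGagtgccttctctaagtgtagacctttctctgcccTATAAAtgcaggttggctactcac
Defa23, chr8:21054967-21055030, plus strand: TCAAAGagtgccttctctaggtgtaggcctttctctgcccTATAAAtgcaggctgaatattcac
Defa30, chr8:21134549-21134612, plus strand: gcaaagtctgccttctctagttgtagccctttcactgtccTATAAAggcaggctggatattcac
Defa38, chr8:21096101-21096164, minus strand: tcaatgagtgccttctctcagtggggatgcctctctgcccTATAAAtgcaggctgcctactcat
The 250 bases before the start were searched on both strands for the TATA box letters and for a pair of Tcf binding site cores, CTTTGA and, with its last letter changed, CTTTGT. These motifs do not overlap each other on the same strand. TATAAA was found in 15 of the 16 alpha-defensin promoters and in 12.4% of all 32851 promoters. CTTTGA was found in 13 of 16, against 13.8% of all promoters, and CTTTGT in 9 of 16, against 16.5%. All 13 plus-strand promoters held CTTTGA and 9 held CTTTGT, whereas 0 of the 3 minus-strand promoters held either, which says only that these letters are not in those windows.

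Several libraries differed in the RNA of other tissues and of gut regions, and their part in the results below was not tested. All 14 pancreatic acinar markers made up 5.53% of all FPKM in 2K, 7.83% of that in 3K and at most 0.00495% elsewhere. All 9 gastric markers gave 2.35% in 2K and at most 0.00881% elsewhere, and all 9 liver markers 3.61% and at most 0.0403%. The 8 colonic markers gave 0.123% in 3KR and at most 0.00199% elsewhere. Car1, a carbonic anhydrase of the large intestine, was at 1151 FPKM in 3KR, although Hoxd13 was listed at 0 there. The neutrophil list, 8 genes, gave 0.223% in 3KR and at most 0.0227% elsewhere. The 8 macrophage markers gave between 0.0142% (1K) and 0.0710% (R), and the 6 smooth muscle markers between 0.0467% (2K) and 0.162% (3KR). The share of FPKM from protein-coding genes was 44.9% in 3KR, and it ran from 68.1% to 80.8% elsewhere. As each of these libraries is its whole condition, no result on 2K, 3K or 3KR could be repeated without it.

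FPKM is scaled to transcript length, so levels can be set side by side between genes. Of the 28 alpha-defensins, 9 had at least 1 FPKM in every library and 18 in at least 1, 2 (Defa32 and Defa36) stayed above 0 and below 1 FPKM, and 8 (Defa2, Defa20, Defa21, Defa25, Defa28, Defa33, Defa42 and Defa43) were listed at 0 throughout. Of those 8 genes, Defa28, Defa21 and Defa25 had 59.8%, 59.6% and 54.4% of their possible 100-base reads in no other gene's transcript, and the other 5 had at most 4.42%, so for these 5 a value of 0 does not show that they are silent. One fragment on a transcript of 370 to 430 bases was worth between 0.149 FPKM (2KR) and 0.207 FPKM (1K), and 0.326 FPKM in 3KR, as estimated from the smallest steps in the table. Values under 1 FPKM therefore rest on few fragments.

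**Figure D1:**
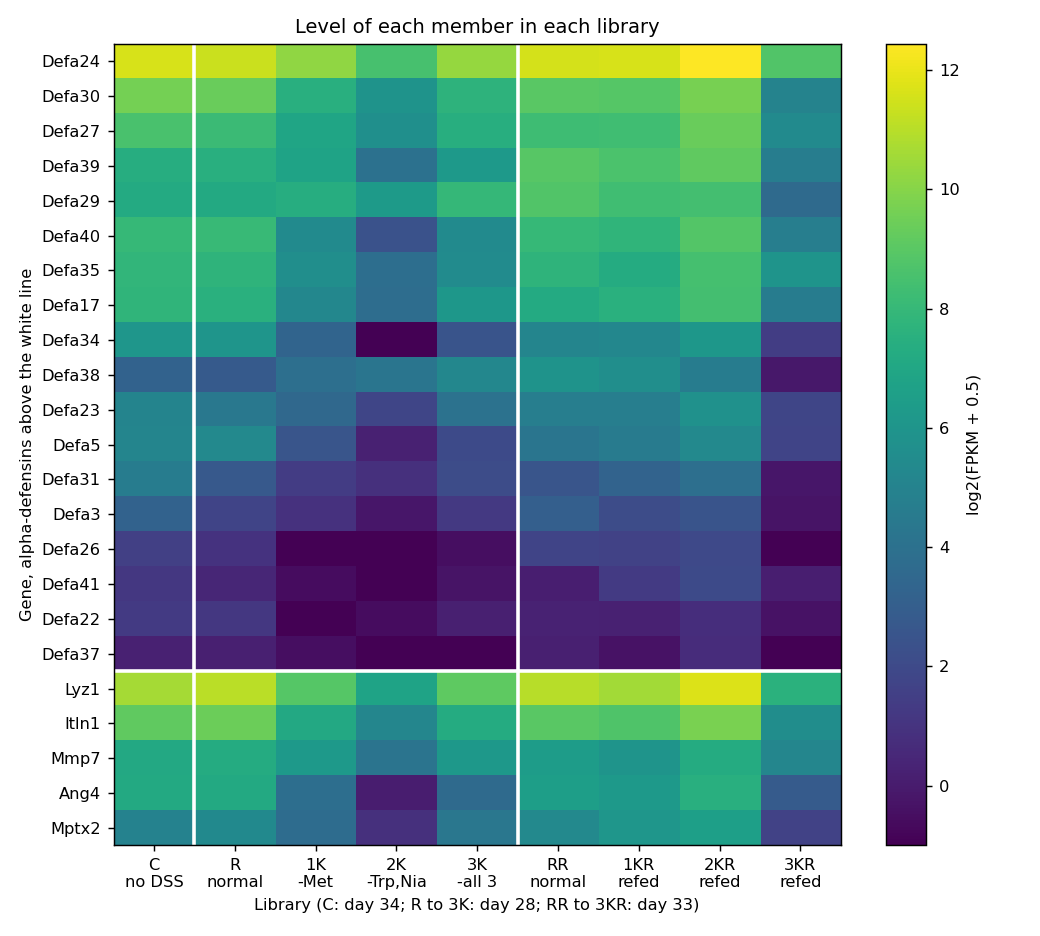
Level of each member in each library as log2(FPKM + 0.5), for the 23 members with at least 1 FPKM in any library, with alpha-defensins above the white line and the other products below it. Defa24 is the brightest row in every library, and 2K and 3KR are the darkest columns for most members.

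The alpha-defensins together gave 5498 FPKM in C, 4659 in R, 1928 in 1K, 623 in 2K, 2186 in 3K, 5546 in RR, 5449 in 1KR, 9319 in 2KR and 671 in 3KR. The 3 deficient libraries at day 28 and the refed library 3KR were low, and 2KR stood above all others. This was 0.920% of all FPKM in C, 0.0816% in 2K, 1.32% in 2KR and 0.0689% in 3KR.

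Lyz1 was at 1592 FPKM in C, 2149 in R, 484 in 1K, 109 in 2K, 554 in 3K, 2048 in RR, 1516 in 1KR, 3407 in 2KR and 193 in 3KR. The same 4 libraries were low, and 2K was lowest. Its close relative Lyz2, the lysozyme of macrophages, was between 31.4 and 260 FPKM. Across the 23 members with at least 1 FPKM somewhere, the highest value was in 2KR for 16, in C for 3, in R for 2 and in RR for 2, and the lowest was in 2K for 15, in 3KR for 6 and in 1K for 2.

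**Figure D2:**
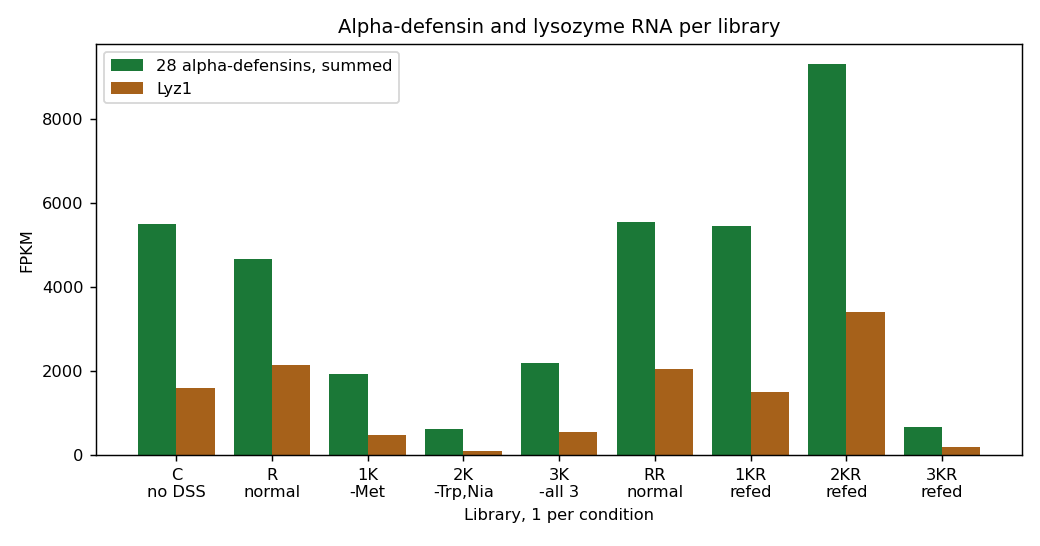
Summed FPKM of the 28 alpha-defensins and FPKM of Lyz1 in each library, 1 bar per library and no error bar because each condition has 1 library. The alpha-defensin sum runs from 623 FPKM (2K) to 9319 FPKM (2KR), and Lyz1 from 109 to 3407 FPKM in the same libraries.

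Defa24 was the most abundant alpha-defensin, at 3108 FPKM in C, 2596 in R, 1187 in 1K, 363 in 2K, 1261 in 3K, 3002 in RR, 3213 in 1KR, 5550 in 2KR and 434 in 3KR. It made up between 54.1% (RR) and 64.7% (3KR) of the alpha-defensin FPKM, while its level had a 15.3-fold range. As the holder of most of the sum, Defa24 has little room to vary in share. Defa30, its nearest relative in sequence, was at 804 FPKM in C, 649 in R, 177 in 1K, 59.1 in 2K, 208 in 3K, 517 in RR, 484 in 1KR, 812 in 2KR and 31.6 in 3KR. Its share of the alpha-defensin FPKM was 14.6% in C and 4.71% in 3KR, so it did not keep step with Defa24.

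Defa27 was at 383 FPKM in C, 285 in R, 118 in 1K, 51.2 in 2K, 174 in 3K, 310 in RR, 324 in 1KR, 658 in 2KR and 43.4 in 3KR. Its share stayed between 5.59% and 8.21%. Defa35 was at 233 FPKM in C, 212 in R, 49.6 in 1K, 13.7 in 2K, 43.6 in 3K, 217 in RR, 155 in 1KR, 360 in 2KR and 62.6 in 3KR. In 3KR it held 9.32% of the alpha-defensin FPKM, against at most 4.55% elsewhere.

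Defa40 was at 252 FPKM in C, 267 in R, 42.6 in 1K, 4.69 in 2K, 42.6 in 3K, 259 in RR, 218 in 1KR, 458 in 2KR and 26.9 in 3KR. The range of 97.7-fold was wider than that of Defa24, and 2K was far below the rest. Defa17 was at 220 FPKM in C, 182 in R, 36.6 in 1K, 13.4 in 2K, 68.8 in 3K, 150 in RR, 182 in 1KR, 338 in 2KR and 24.9 in 3KR. Defa34 was at 67.4 FPKM in C, 63.9 in R, 9.71 in 1K, 5.14 in 3K, 33.9 in RR, 36.2 in 1KR, 68.7 in 2KR and 2.21 in 3KR, and it was listed at 0 in 2K. Both rank 2K and 3KR among their lowest libraries, with the uncertainty of shared reads noted above.

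Defa39, the first of the CRS1C genes, was at 166 FPKM in C, 179 in R, 109 in 1K, 15.8 in 2K, 75.6 in 3K, 496 in RR, 394 in 1KR, 579 in 2KR and 25.3 in 3KR. Defa29 was at 147 FPKM in C, 144 in R, 162 in 1K, 78.5 in 2K, 245 in 3K, 440 in RR, 323 in 1KR, 346 in 2KR and 11.9 in 3KR. Defa38 was at 8.98 FPKM in C, 6.54 in R, 14.5 in 1K, 18.2 in 2K, 36.6 in 3K, 60.2 in RR, 50.2 in 1KR, 24.5 in 2KR and 0.427 in 3KR. Unlike the cryptdin type, Defa38 was lowest at day 28 in R and higher in each deficient library, and all 3 genes were higher in RR than in R or C.

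The 8 remaining alpha-defensins that reached 1 FPKM were Defa23, Defa5, Defa31, Defa3, Defa26, Defa41, Defa22 and Defa37. The most abundant were Defa23, from 2.99 FPKM in 2K to 54.5 in 2KR, and Defa5, from 0.672 FPKM in 2K to 39.5 in R. Defa31 ran from 0.365 FPKM in 3KR to 24.6 in C, and Defa3 from 0.307 FPKM in 3KR to 8.78 in C. The other 4 were at most at 3.51 FPKM in any library.

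Itln1 was at 572 FPKM in C, 682 in R, 139 in 1K, 35.9 in 2K, 152 in 3K, 514 in RR, 422 in 1KR, 855 in 2KR and 47.8 in 3KR. As a percentage of Lyz1 it stayed between 24.7% and 36.0% in all 9 libraries, a 1.45-fold range, while Lyz1 itself ranged over 31.2-fold. Mptx2 was at 31.0 FPKM in C, 40.5 in R, 13.0 in 1K, 1.32 in 2K, 19.5 in 3K, 39.6 in RR, 66.5 in 1KR, 96.8 in 2KR and 2.70 in 3KR.

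Ang4 was at 143 FPKM in C, 141 in R, 14.1 in 1K, 0.539 in 2K, 12.1 in 3K, 92.2 in RR, 74.7 in 1KR, 178 in 2KR and 6.81 in 3KR. It had the widest range of the 5 products, 330-fold, and it was between 8.96% of Lyz1 in C and 0.493% of Lyz1 in 2K. Mmp7 was at 138 FPKM in C, 152 in R, 77.5 in 1K, 17.6 in 2K, 72.3 in 3K, 84.4 in RR, 61.6 in 1KR, 152 in 2KR and 35.3 in 3KR. It had the narrowest range, 8.64-fold, and it was at 18.3% of Lyz1 in 3KR and 16.1% in 2K but 4.07% in 1KR, so this enzyme did not keep a fixed ratio to Lyz1.

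R and RR, with DSS on normal diet, were each compared with C, without DSS. The day of collection differs too (28, 33 and 34), so DSS and day cannot be told apart. A gene was counted where the difference in log2(FPKM + 0.5) was at least 1 (2-fold) and either library had at least 1 FPKM. A gene that passes this floor through 1 library only can be counted only as higher in that library. R and C were close. Of 22 members past that floor, 2 were lower in R (Defa3 and Defa31; 3.22% of all genes were lower) and 0 were higher (4.43% of all genes). The median member difference was -0.12 and that of all genes 0.01. The alpha-defensin sum in R was 0.847 times that in C.

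In RR the sum was 1.01 times that in C, but the make-up differed. Of 22 members, Defa39, Defa38 and Defa29 were higher (6.71% of all genes were higher), by 1.57, 2.68 and 1.57 on the log2 scale in that order, and Defa31 and Defa41 were lower (5.81% of all genes). Defa41 passed the floor only through C, so it could not have been counted as higher. The median over members was -0.23 and over all genes -0.02. The lower count was 5 with median-of-ratios scaling. RR against R, both with DSS, gave the same 3 genes and Defa3 as higher (5.42% of all genes) and Defa5 as lower (5.29%) among 21 members. Beside this, Fabp6, an ileal bile acid carrier, was at 3486 FPKM in C, 1946 in R and 2.90 in RR, and Fabp1, a fatty acid carrier of the upper gut, at 55.1, 113 and 1525 FPKM. The part of these markers in the difference was not tested.

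To see what the deficient diets went with, 1K, 2K and 3K were each compared with R, so that these 3 comparisons share R. In 1K the alpha-defensin sum was 2.42-fold lower. Of 21 members, 15 were lower (8.63% of all genes were lower), 11 of them alpha-defensins, and 1 was higher, Defa38 (7.17% of all genes). Among those lower, Defa26 and Defa22 passed the floor only through R, so they could not have been counted as higher. The median member difference was -1.87 and that of all genes 0.03. Mmp7 (-0.97), Defa39 (-0.71), Defa29 (0.18), Defa3 and Defa23 stayed within 2-fold.

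In 2K the sum was 7.48-fold lower than in R, the widest gap at day 28. Of 21 members, 19 were lower (14.1% of all genes), including all 5 other products, and Defa38 was higher (14.7% of all genes). Among those lower, Defa26, Defa22, Defa34, Defa5, Defa3 and Ang4 passed the floor only through R, so they could not have been counted as higher. The median was -3.45 against 0.02 for all genes. The log2 difference was -7.09 for Ang4, -5.69 for Defa40, -4.29 for Lyz1, -3.08 for Mmp7, -2.84 for Defa24 and -0.87 for Defa29. Pancreatic, gastric and liver RNA was present in 2K, as given above, and the epithelial level, the geometric mean of 7 genes shared by epithelial cells such as Epcam and Krt8, was 231 FPKM in 2K and 406 in R. Of these 7 genes 3 were lower in 2K (14.1% of all genes) and 1 was higher (14.7% of all genes), Krt18, at 80.1 FPKM in R and 222 in 2K. The part of the RNA of other organs in this epithelial level was not tested. Per epithelial level the alpha-defensin sum was 2.69 in 2K and 11.5 in R, so it was lower on that scale too.

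In 3K, without all 3 nutrients, the sum was 2.13-fold lower than in R and so nearer to R than in 2K. Of 21 members, 14 were lower (13.4% of all genes) and Defa38 was higher (11.6% of all genes), with a median of -1.24 against 0.00 for all genes. Defa26, among those lower, passed the floor only through R, so it could not have been counted as higher. After scaling to the 7 epithelial genes, 9 members were lower and 2 were higher, Defa38 and Defa29, with a median of -0.63 while that of all genes moved to 0.59. The epithelial level in 3K was 266 FPKM. Set side by side, the log2 difference from R for Lyz1 was -2.15 in 1K, -4.29 in 2K and -1.96 in 3K, and for Defa24 it was -1.13, -2.84 and -1.04.

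Defa38 was 1.09 higher in 1K, 1.41 in 2K and 2.40 in 3K than in R on the log2 scale. With median-of-ratios scaling the value in 1K was 0.90, and with scaling to protein-coding FPKM it was 0.57 in 1K, 0.89 in 2K and 2.10 in 3K, so the direction held, and under that last scaling 2-fold was passed in 3K only. Defa29 was 0.18 above R in 1K as deposited and turned to -0.03 with median-of-ratios scaling and -0.37 with scaling to protein-coding FPKM. Its value in 3K was 0.77, and between 0.46 and 1.38 under the 3 scalings.

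**Figure D3:**
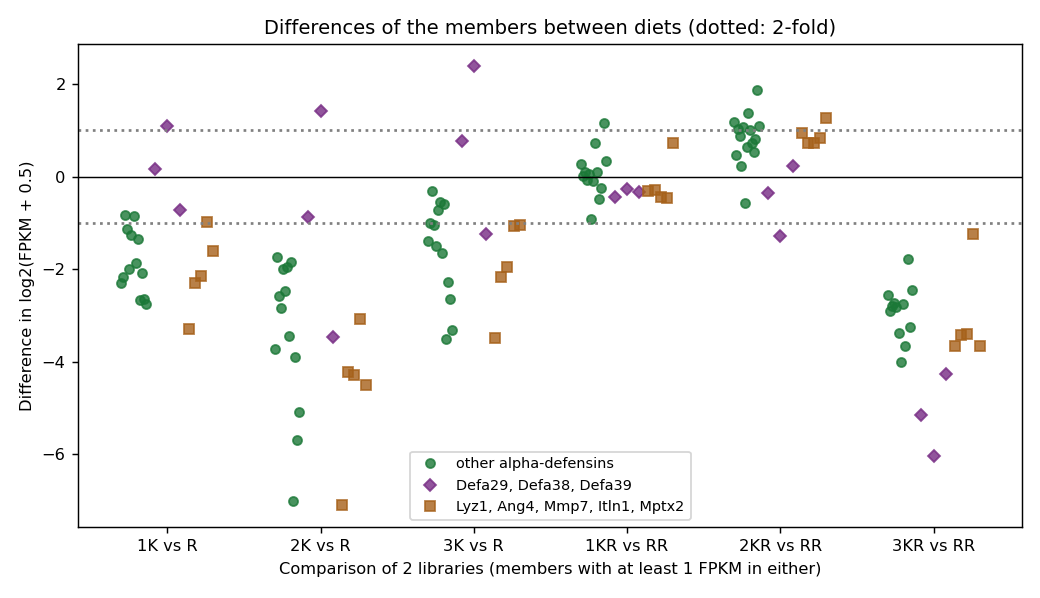
Differences in log2(FPKM + 0.5) of the members between each diet library and its normal-diet control of the same day, 1 point per member with at least 1 FPKM in either library, with dotted lines at 2-fold. Points lie mostly below 0 in 1K, 2K, 3K and 3KR, and Defa38 is the diamond at 1.09, 1.41 and 2.40 in the first 3 columns and at -6.03 in the last; Defa34 was listed at 0 in 2K, so its point there depends on the pseudocount.

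Crypt markers were low in the same deficient libraries. Of 7 crypt stem markers 5 were lower in 1K, 7 in 2K and 6 in 3K, where 8.63%, 14.1% and 13.4% of all genes were lower. The 7 crypt stem markers gave 0.0494% of the summed FPKM in R, 0.00467% in 1K, 0.00308% in 2K and 0.00483% in 3K. Olfm4, an abundant crypt gene that carries most of that sum in R, was at 214 FPKM in R, 3.51 in 1K, 1.03 in 2K and 0.916 in 3K, and Ascl2 was listed at 0 in 2K. The 7 goblet cell markers gave 2.75% in R, 1.96% in 1K, 0.412% in 2K and 0.548% in 3K, and 0, 7 and 6 of them were lower. Of the 9 enterocyte markers, 0 were lower and 6 higher in 1K, 5 were lower and 3 higher in 2K, and 4 were lower and 1 higher in 3K, where 7.17%, 14.7% and 11.6% of all genes were higher. The part of these cell types in the lower alpha-defensin values was not tested.

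To see whether the lower levels were still present after refeeding, 1KR, 2KR and 3KR were each compared with RR, which these 3 comparisons share. In 1KR the alpha-defensin sum was 5449 FPKM beside 5546 in RR. Of 21 members, 0 were lower (3.51% of all genes) and 1 was higher, Defa41 (2.47% of all genes), which was at most at 3.51 FPKM in any library. Defa41 passed the floor only through 1KR, so it could not have been counted as lower. The median was -0.09 against -0.01 for all genes.

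In 2KR the sum was 1.68-fold higher than in RR. Of 23 members, 8 were higher (2.67% of all genes), namely Defa17, Defa34, Defa5, Defa31, Defa23, Defa41, Defa27 and Mptx2, and Defa38 was lower (3.67% of all genes). Defa41 passed the floor only through 2KR, so it could not have been counted as lower. The median was 0.82 against -0.04 for all genes. Lyz1 was 0.73 higher and Defa24 0.89 higher on the log2 scale, short of 2-fold. After scaling to the 7 epithelial genes 2 members were higher.

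In 3KR the sum was 8.27-fold lower than in RR. Of 20 members past the floor, 20 were lower (9.73% of all genes) and 0 were higher (11.4% of all genes), with a median of -3.31 against 0.03 for all genes. Defa26, Defa3, Defa31 and Defa38 passed the floor only through RR, so they could not have been counted as higher. The counts are therefore read beside the values. The log2 difference was -1.24 for Mmp7, -1.78 for Defa35, -2.79 for Defa24, -3.40 for Lyz1, -4.01 for Defa30, -4.27 for Defa39 and -5.15 for Defa29. Defa38 was at 0.427 FPKM in 3KR, under the worth of 3 fragments there (0.978 FPKM), so its difference of -6.03 depends on the pseudocount. The epithelial level was 330 FPKM in 3KR and 349 in RR, and the alpha-defensin sum per epithelial level was 2.03 and 15.9. Colonic and neutrophil markers were high in 3KR, as given above, while the 9 proximal markers gave 0.0189% of its FPKM and 0.280% of that of RR. Their part in the low values was not tested.

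Each refed library was also set against its own deficient library at day 28. From 1K to 1KR the sum was 2.83-fold higher, and of 21 members 19 were higher (6.57% of all genes) and 0 lower (7.79%). Defa26 and Defa41, among those higher, passed the floor only through 1KR, so they could not have been counted as lower. From 2K to 2KR it was 15.0-fold higher, and of 23 members 22 were higher (13.5% of all genes) and 0 lower (19% of all genes), Defa38 being the exception at 0.42. Defa26, Defa37, Defa41, Defa22, Defa34, Defa3, Defa5 and Ang4 passed the floor only through 2KR, so they could not have been counted as lower. The first 4 of these were at most at 3.51 FPKM. From 3K to 3KR the sum was 3.26-fold lower, and of 19 members 15 were lower (11.7% of all genes) and 0 higher (13.3%). Defa38, Defa3 and Defa31, among those lower, passed the floor only through 3K, so they could not have been counted as higher. The refed libraries 1KR and 2KR were thus above and 3KR below their day 28 libraries, and this difference was not tested because each rests on 1 library.

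The make-up of the alpha-defensin RNA was set apart from its amount by giving each gene as a percentage of the sum. Defa29, Defa38 and Defa39 together held 5.86% in C, 7.07% in R, 14.8% in 1K, 18.1% in 2K, 16.3% in 3K, 18.0% in RR, 14.1% in 1KR, 10.2% in 2KR and 5.60% in 3KR. C, R and 3KR were low, and the other 6 libraries were higher. A share within the family does not depend on the scaling of a library. Defa38 alone ran from 0.0636% (3KR) to 2.93% (2K), a 46.0-fold range. Its low end rests on 0.427 FPKM in 3KR, under the worth of 3 fragments there (0.978 FPKM). The range for Defa24 was 1.20-fold, but a gene that holds most of the sum has little room to vary in share.

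**Figure D4:**
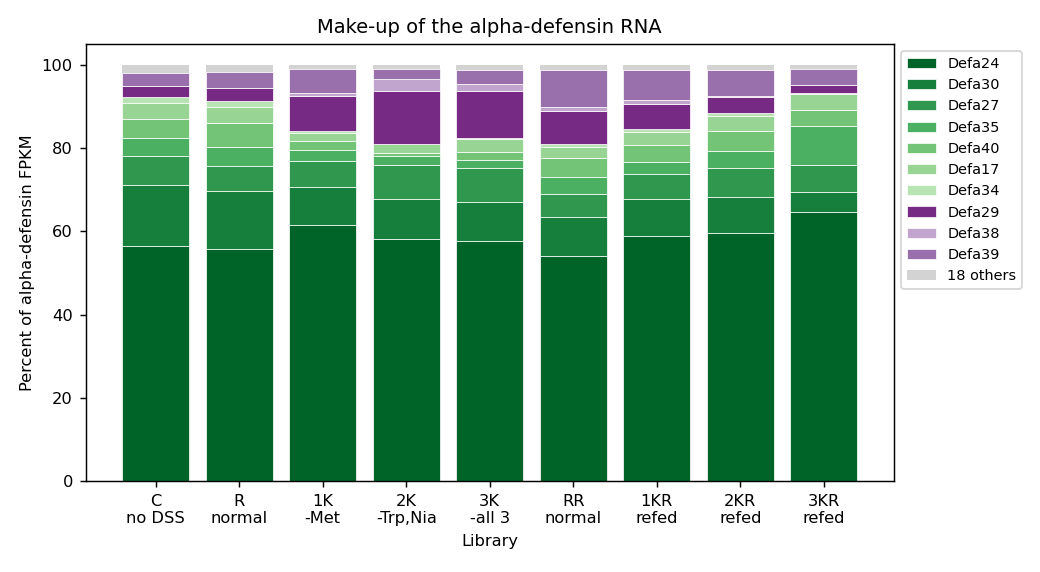
Share of each of the 10 most abundant alpha-defensins in the summed alpha-defensin FPKM, 1 bar per library, with the remaining 18 in grey. Defa24 fills between 54.1% and 64.7% of each bar, and the purple section of the CRS1C genes runs from 5.60% in 3KR to 18.1% in 2K.

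In FPKM the CRS1C genes summed to 322 in C, 329 in R, 286 in 1K, 113 in 2K, 357 in 3K, 995 in RR, 767 in 1KR, 950 in 2KR and 37.6 in 3KR. In 1K and 3K their sum was thus near that of R, while the other 7 of the 10 most abundant alpha-defensins together were at 4255 FPKM in R, 1621 in 1K and 1802 in 3K. The sum joins unlike members. The log2 difference from R of Defa39 was -3.46 in 2K and -1.24 in 3K, beside medians of -2.84 and -1.40 for the other alpha-defensins past the floor, whereas that of Defa29 was -0.87 and 0.77. In RR their sum was above that of R while the other 7 were at 4488 FPKM, close to R.

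Some markers of gut region, though not all, were split between the same libraries. The 6 ileal markers gave 0.707% of the summed FPKM in C and 0.458% in R, 0.123% in 3KR, and between 0.0160% (2K) and 0.0939% (1K) in the other 6. The 9 proximal markers gave 0.0229% in C, 0.0389% in R and 0.0189% in 3KR, and between 0.125% (2K) and 0.443% (1K) in the other 6. C, R and 3KR are also the 3 libraries with the lowest CRS1C share. Gata4, a transcription factor of the upper small intestine, was at 14.2 FPKM in C, 23.2 in R and 7.38 in 3KR, and between 35.2 and 70.9 FPKM in the other 6. Fabp6 carried most of the ileal sum in C, R and 3KR only, and Fabp1 most of the proximal sum in all libraries but C, R and 2K. Some other markers did not follow the split between C, R and 3KR and the other 6 libraries. Slc40a1, a proximal iron exporter, was at 13.7 FPKM in C and 23.4 in 3KR but 4.27 in RR and 4.53 in 1K. Of the ileal markers, Cubn was at 104 FPKM in 3KR but 182 in RR, Fgf15 at 0.796 FPKM in 3KR but 8.25 in 1K, and Slc51b was highest in 3K, at 173 FPKM. The part of gut region in the make-up was not tested, and in 1 library per condition it cannot be told apart from diet and day.

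**Figure D5:**
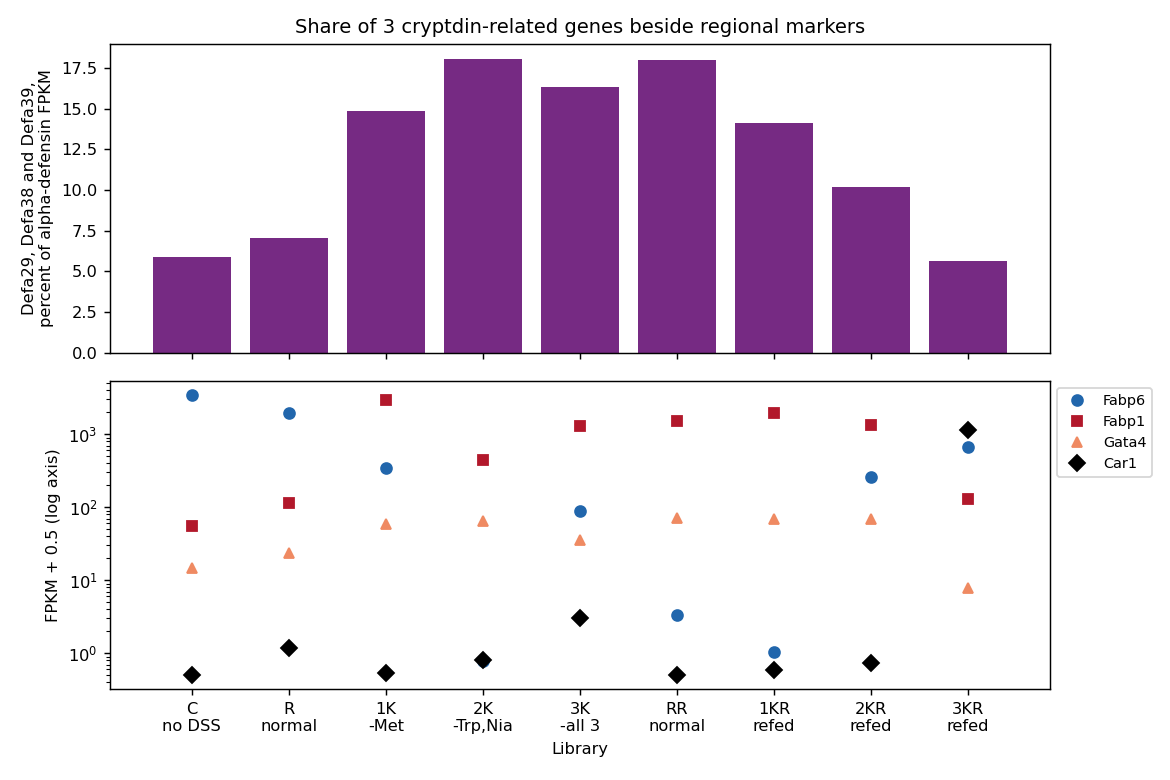
Upper panel, share of Defa29, Defa38 and Defa39 in the alpha-defensin FPKM; lower panel, FPKM + 0.5 on a log axis of Fabp6 (ileum), Fabp1 and Gata4 (upper small intestine) and Car1 (large intestine) in the same libraries. C, R and 3KR have the 3 lowest bars and the 3 lowest Fabp1 and Gata4 values, Car1 is at 1151 FPKM in 3KR, and the Fabp6 point of 2K lies behind that of Car1.

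Other known Paneth cell products, 14 genes outside the rule, did not move as one. In 1K 4 were lower and 2 higher than in R, in 2K 4 and 3, in 3K 4 and 5, and in 3KR 4 and 5 against RR. Over all genes 8.63% were lower and 7.17% higher in 1K, 14.1% and 14.7% in 2K, 13.4% and 11.6% in 3K, and 9.73% and 11.4% in 3KR. In 1KR and 2KR 0 of 13 past the floor were lower or higher. Pla2g2a, a secreted phospholipase that kills bacteria, was at 2110 FPKM in R, 351 in 1K, 39.3 in 2K, 441 in 3K, 1274 in RR, 1096 in 1KR, 2545 in 2KR, 533 in 3KR and 1652 in C, low in the same 4 libraries as Lyz1. Reg3b and Reg3g are lectins that enterocytes also make. Reg3b was higher in all 3 deficient libraries than in R, and Reg3g in 1K and 3K but not in 2K. Reg3b was at 6070 FPKM in R, 35192 in 1K, 16411 in 2K, 28692 in 3K and 806 in RR, and Reg3g at 2970 in R, 10668 in 1K, 2643 in 2K, 8376 in 3K and 549 in RR. Nupr1 was at 39.9 FPKM in R and 496 and 503 in 2K and 3K, the libraries with pancreatic RNA, and Reg3a at 66.2, 830 and 1239 FPKM in the same 3 libraries. Cd24a stayed between 57.6 and 221 FPKM.

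A list of 27 genes of Paneth cell fate and secretion was read the same way. In 1K 2 were lower and 0 higher, in 2K 5 and 1, in 3K 7 and 3, in 1KR 0 and 0, in 2KR 0 and 1, and in 3KR 1 and 3. Over all genes 8.63% were lower and 7.17% higher in 1K, 14.1% and 14.7% in 2K, 13.4% and 11.6% in 3K and 9.73% and 11.4% in 3KR, so the counts in 1K, 2K and 3KR are read as near that background. Ctnnb1, the Wnt effector beta-catenin, stayed between 276 and 427 FPKM, and Tcf7l2, its partner, between 32.8 and 64.2. Cdx2, an intestinal identity factor, was at 14.0 FPKM in 2K and 15.7 in 3K and between 46.6 and 55.9 elsewhere, and Xbp1, a driver of secretory capacity, was at 183 and 208 FPKM there and between 76.6 and 117 elsewhere. Hnf4a stayed between 89.0 (3K) and 229 FPKM, and Rab8a between 31.0 (2K) and 109 FPKM. These genes are the most abundant of the list and do not stand for the rest. Among the others, Atoh1 was at 13.9 FPKM in R, 1.18 in 2K and 1.03 in 3K. Notch1 went the other way, at 7.64, 25.1 and 21.6 FPKM in the same libraries. Of the 42 beta-defensins in the table, epithelial relatives made outside Paneth cells, 1 reached 1 FPKM, Defb37 with 1.60 in C. Of 16 symbols of the alpha-defensin locus without a Defa name 2 were in the table, and Gm15056 reached 1.13 FPKM in 3KR. Others of the 16 are GENCODE M21 symbols of members, such as AY761184 for Defa39, Gm15292 for Defa40 and Gm14851 for Defa38. A symbol that was not found therefore does not show that its gene is absent.

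The only test the design allows uses the 8 DSS libraries, which cross day with lack of methionine and with lack of tryptophan and niacin, and was fitted with limma to 17577 genes, 21 members among them. Its 2 residual degrees of freedom come from assuming that both deficiencies add on the log2 scale. By limma with Benjamini-Hochberg adjustment, 0 of 21 members passed an adjusted p of 0.05 for tryptophan and niacin deficiency at day 28 (0.188% of all genes did), where the lowest adjusted p of a member was 0.336 and 0 members had an unadjusted p under 0.05, beside 19.2% of all genes. For methionine deficiency at day 28 and day 33 and for tryptophan and niacin deficiency at day 33, 0 members and 0% of all genes passed, with lowest adjusted p values of 1, 1 and 0.980. For the change of the tryptophan and niacin term between days 0 members passed (0.148% of all genes did), and for that of the methionine term 0 members and 0% of all genes. An unadjusted p under 0.05 was reached by 1 of 21 members for tryptophan and niacin at day 33 (2.21% of all genes) and by 1 for its change between days (9.03% of all genes). For the methionine terms it was reached by 0 members, beside 3.20% of all genes at day 28, 1.24% at day 33 and 2.11% for the change.

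The members left a larger residual than most genes, with a median residual SD of 1.80 on the log2 scale against 0.34 for all genes. The values above show the shape of it: 2K was further below R than 3K was, and 3KR was low while 1KR and 2KR were not. A p above the threshold here does not show that the diets left these genes alone.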

How the data were processed

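Ribosomal RNA was depleted from total RNA and stranded libraries were made, per the labels' protocols. The submitters' processing notes name HISAT2, Cuffdiff 2.2.1 and GRCm38. The authors deposited FPKM for each gene and library, per the file headers. FPKM is a fragment count scaled to transcript length and to library size, and the headers do not say how library size was set. The sources used here do not give the gene annotation, the read length or the treatment of reads that fit several places. Fragment totals are not in the table, so depth was estimated from its smallest steps and no counting interval is given.

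Values were used as deposited, as log2(FPKM + 0.5). A pair of libraries was compared over genes with at least 1 FPKM in either, counting differences of at least 1, in 12 comparisons. A factorial of the 8 DSS libraries was fitted with limma 3.58.1 in R 4.3.3, with a mean-variance trend, to the 17577 genes averaging 1 FPKM or more, and adjusted by Benjamini-Hochberg over all of them. The fit was tested on simulated data with 50 changed genes for each size and diet term. At log2 changes of 1 and of 2 it called 0 of 50 for every term. At 4 it called between 13 and 27, and at 8 between 28 and 41. The changed genes were drawn at random from all genes fitted, whose median residual SD was 0.34, against 1.80 for the members. These counts therefore do not apply to the members. Replicates could not be compared, since each condition has 1 library.

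The members and lists were chosen with earlier results of these data known. Values were given one by one for Lyz1, Ang4, Mmp7, Itln1, Mptx2 and the 10 alpha-defensins with the highest mean FPKM, and for up to 6 genes with the highest mean in each other list where a result turned on them. Some values of Defa5, Defa23, Defa31, Krt18, Atoh1 and Notch1 were given as well. Sequences were read with Biopython 1.88 and pandas 2.3.3. Alternatives were other pseudocounts (1 and 0.1), no floor or a floor of 5 FPKM, and 3 other scalings.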

Additional observations from a re-analysis of the deposited data

Results flagged for a closer look

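Lyz1, Ang4, Mmp7, Itln1, Mptx2 and the 10 most abundant alpha-defensins were screened for opposite differences in the deficient and the refed libraries. For the tryptophan and niacin diet 5 of them had these, each by at least 2-fold in both comparisons. Defa27 differed from the normal diet by -2.47 on the log2 scale in 2K (51.2 against 285 FPKM) and by 1.08 in 2KR (658 against 310 FPKM). Defa17 differed by -3.71 and 1.17, and Mptx2 by -4.50 and 1.28. Defa34 was listed at 0 in 2K, so its -7.01 depends on the pseudocount, and it differed by 1.01 in 2KR. Defa38 had the opposite order, 1.41 in 2K and -1.28 in 2KR. Outside the screened genes, Defa5 (-5.09 and 1.09), Defa23 (-2.57 and 1.04) and Defa31 (-1.85 and 1.38) met the same criterion. The share of all genes that did so was not counted.

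For the diet without all 3 nutrients, Defa38 differed by 2.40 in 3K (36.6 against 6.54 FPKM) and by -6.03 in 3KR (0.427 against 60.2 FPKM). The difference between the days was not tested for these pairs, because each group is 1 library. In the factorial fit by limma, which pools libraries, the change of the tryptophan and niacin term between days passed for 0 of 21 members, with a lowest adjusted p of 0.526.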

How the results depend on the processing

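Of 168 recounts of the members at least 2-fold apart under the alternatives, 147 stayed within 1.5 times the count reported. Refits of the factorial model gave 86 counts of members called, 1 for each term of each refit, and every count was 0, as in the fit reported. The refits without 1 library called none of the genes tested, so they are no sign of stability. The 18 values of the make-up stayed within 1.5 times the value reported, and of 1260 differences of single members 33 crossed 2-fold.

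The counts that moved were mostly small. With a pseudocount of 1, 1 member was lower in RR than in C and 0 were higher in 1KR than in RR, and with 0.1, 2 were lower in RR than in R. Without a floor, 2 were lower in RR than in R. With a floor of 5 FPKM, 1 was lower in RR than in C and 0 were higher in 1KR than in RR. Median-of-ratios scaling gave 5 lower in RR than in C, 3 lower in RR than in R and 0 higher in 1K than in R. Scaling to protein-coding FPKM, chosen after seeing the data, gave 5 lower in RR than in C, 5 lower in RR than in R, 1 lower in 1KR than in RR, and 0 higher in 1K and in 2K than in R.

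Scaling by the 7 epithelial genes gave 9 lower and 2 higher in 3K than in R, 2 higher in 2KR than in RR, 1 lower in RR than in C, 0 lower in RR than in R, and 1 lower and 0 higher in 1KR than in RR. It moved the median of all genes to 0.78 in 2K and 0.59 in 3K against R. Median-of-ratios scaling moved it to -0.16 in 1K against R and 0.15 in 3KR against RR, and protein-coding scaling to -0.48 in 1K and -0.51 in 2K against R.

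With each library left out in turn, the fit had 1 residual degree of freedom and called none of the genes tested, so these refits say nothing on the members. No paired analysis was possible because each condition has 1 library. Values near 1 FPKM rest on few fragments, most of all in 3KR.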
